A study of Homo sapiens with 5 samples.

Results

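The E2F and RB genes encode the transcription switch that opens S phase, and 10 of them were examined here among the 26364 genes listed in the mRNA-seq data. They were chosen by symbol, with earlier results of these data known. They are the activator E2Fs E2F1, E2F2 and E2F3, the repressor E2Fs E2F4, E2F7 and E2F8, the pocket proteins RB1, RBL1 and RBL2, and the B-MYB gene MYBL2. All 10 were listed. The cells were IMR-90, a line of normal human lung fibroblasts, grown in serum and collected 24 hr after transfection with siRNA. Ctr-KD cells had a control siRNA (2 libraries). NSD2-KD cells had an siRNA against NSD2, the H3K36 methyltransferase also called WHSC1 or MMSET, and each of the 3 libraries had a different one (NSD2-1, NSD2-2 or NSD2-3). Every difference between single NSD2-KD libraries is therefore also a difference between siRNAs, and the siRNA and the library cannot be told apart. All 5 libraries came from a single cell line and from growing cells, and the comparison addresses the role of NSD2 in the senescence of such cells.

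In resting and early G1 cells, pocket proteins sit on E2F factors at promoters and keep S phase genes silent. Cyclin-dependent kinases phosphorylate the pocket proteins, the activator E2Fs are freed, and genes for DNA replication are transcribed, among them several E2F and pocket protein genes themselves. RBL2 (p130) and RBL1 (p107) work mainly with E2F4 in the DREAM complex, whose MuvB core later joins B-MYB and FOXM1 to switch on genes of G2 and mitosis. E2F7 and E2F8 bind the same sites without a pocket protein and turn the targets down late in S phase. In fibroblasts the lasting silence of E2F targets under RB is a known feature of senescence.

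The libraries held between 2473691 and 2845063 reads on genes, so that a gene at 3 reads, taken as the floor of detection, lay between 2.76 and 3.28 normalized counts (reads divided by the size factor of the library). The target of the siRNAs, listed as WHSC1, had 463 and 443 normalized counts in Ctr-KD cells and 90.2, 81.9 and 87.9 with NSD2-1, NSD2-2 and NSD2-3. All 10 fibroblast markers were detected, with a summed level between 202238 and 228140, although S100A4 had at most 8.79 normalized counts. The defining markers of other lineages were at or near 0: all 5 epithelial, 3 of 4 endothelial and 4 of 5 immune markers had at most 3 reads in every library, the exceptions being VWF (at most 5.52) and CD68 (60.5 to 102.7). The 2 Ctr-KD libraries differed by little more than counting alone gives (a chi-square of their reads over its degrees of freedom of 1.05). Pairs of a Ctr-KD and an NSD2-KD library gave between 3.87 and 5.08, and pairs of NSD2-KD libraries between 5.05 and 5.29. Each NSD2-KD library thus differed more from the other NSD2-KD libraries than from either Ctr-KD library, although only slightly so for NSD2-2. Nothing in the labels says that the libraries came from separate cultures, although the methods call the Ctr-KD pair biological replicates. P-values then measure only the spread between these libraries. In Ctr-KD cells this spread may be technical, and in NSD2-KD cells it also holds any difference between the siRNAs. Markers of proliferating cells (MKI67, TOP2A and PCNA) summed to 1762 and 1846 in Ctr-KD cells and to 1036, 624 and 527 in the 3 NSD2-KD libraries. The sum was lower with every siRNA, as were most target genes below, but in another order. It was lowest with NSD2-3, whereas most of those genes were lowest with NSD2-2. MKI67 and TOP2A were lowest with NSD2-3, where PCNA was the highest of the 3 (196, against 136 and 132 with NSD2-1 and NSD2-2). The part of proliferation in the results below was not tested. In such bulk libraries fewer cycling cells and less RNA per cell cannot be told apart.

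The members' own promoters were searched for the E2F motif, since several of these genes are known targets of the family. RefSeq promoters (250 bases before to 50 after the start site, build GRCh38.p14) were matched by symbol for 9 of the 10 members, E2F8 having no entry, and each was placed on GRCh37 by an exact match. The entries of RB1, RBL2 and MYBL2 start inside the annotated gene (172706, 494 and 95 bases past its first base) and were not read, which left 6. The E2F motif was searched as TTTCCCGC, TTTCGCGC, TTTGCCGC or TTTGGCGC on both strands. Of 27305 promoters of this length, 3.33% held it and 0.139% held it at 2 or more separate places. Entries that start inside their gene were not removed from these 27305, unlike those of the members. E2F1 and RBL1 each held 2 matches, and E2F2 and E2F3 held 1 each. E2F4 and E2F7 held none, which says only that these letters are not in the window. Among the members that averaged 10 or more normalized counts, the values of RBL1 and E2F1 differed most. The 80 bases before the start site are given for these, for the 2 other E2Fs with a match and for the 2 without one. They run 5′ to 3′ on the strand of the gene, with the matches in capitals.
RBL1: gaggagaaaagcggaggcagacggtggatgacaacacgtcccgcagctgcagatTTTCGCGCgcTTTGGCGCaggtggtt
E2F1: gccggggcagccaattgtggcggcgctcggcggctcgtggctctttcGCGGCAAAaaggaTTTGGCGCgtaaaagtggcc
E2F2: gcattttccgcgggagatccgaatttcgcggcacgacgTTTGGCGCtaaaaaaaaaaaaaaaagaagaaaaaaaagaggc
E2F3: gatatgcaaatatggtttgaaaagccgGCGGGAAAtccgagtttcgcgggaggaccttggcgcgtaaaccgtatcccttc
E2F4: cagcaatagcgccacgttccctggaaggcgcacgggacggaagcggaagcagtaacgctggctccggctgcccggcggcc
E2F7: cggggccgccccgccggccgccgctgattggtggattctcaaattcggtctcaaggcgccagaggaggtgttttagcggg
On GRCh37 these lie at chr20:35724401-35724480 (RBL1, minus strand), chr20:32274192-32274271 (E2F1, minus), chr1:23857726-23857805 (E2F2, minus), chr6:20402030-20402109 (E2F3, plus), chr16:67225978-67226057 (E2F4, plus) and chr12:77459350-77459429 (E2F7, minus). The matches of RBL1 begin 26 and 16 bases before the start site and those of E2F1 begin 33 and 20 bases before it. In E2F2 and E2F3 the match begins 42 and 53 bases before it. The matches of the 2 genes with a pair thus lie next to each other and within a short stretch upstream of transcription. A second motif, the CHR element bound by MuvB (TTTGAA or TTCGAA, both strands), was found in E2F3 alone of the 6 and in 16.6% of all promoters.

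**Figure D1:**
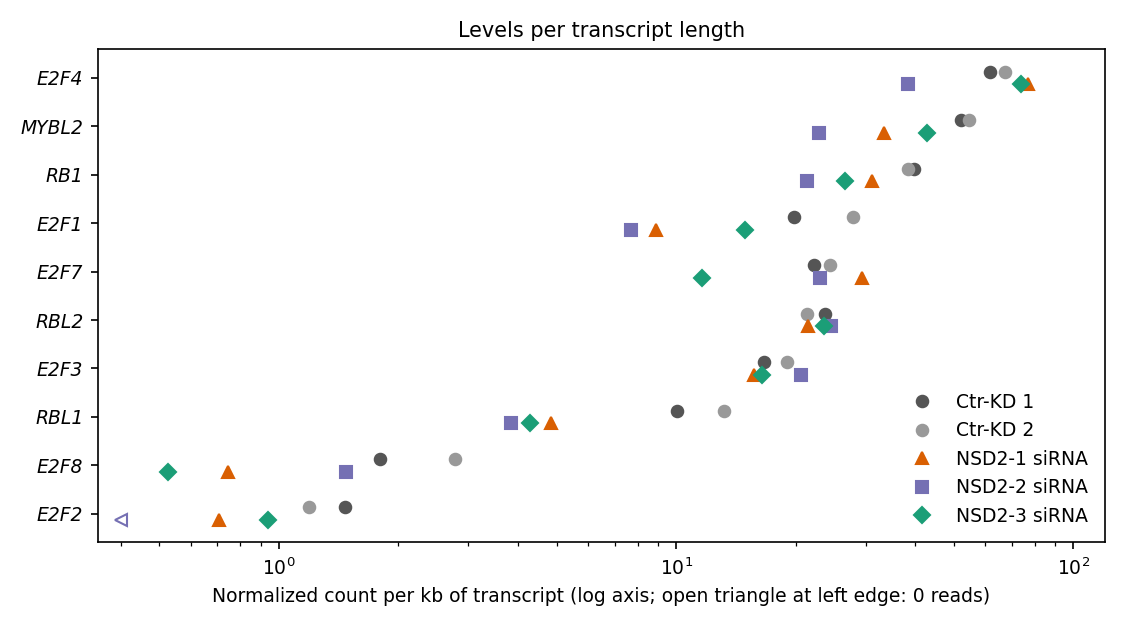
Level of each member per transcript length: normalized count per kb of transcript on a log axis, with 1 point per library (grey circles Ctr-KD, triangles NSD2-1, squares NSD2-2, diamonds NSD2-3). In Ctr-KD cells E2F4 was the highest member at a mean of 64.6 per kb, and E2F8 and E2F2 were the lowest, at 2.29 and 1.33.

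In growing Ctr-KD fibroblasts the family spanned a wide range of levels, compared here as normalized counts per kb of the principal transcript (mean ± SD, n = 2). E2F4, the partner of RBL1 and RBL2, was the highest at 64.6 ± 3.84, followed by MYBL2 at 53.4 ± 1.86 and RB1 at 39.1 ± 0.957. The next 3 members, E2F1 (23.9 ± 5.72), E2F7 (23.4 ± 1.51) and RBL2 (22.6 ± 1.66), did not differ beyond their spread. E2F3 followed at 17.8 ± 1.66 and RBL1 at 11.6 ± 2.23. E2F8 (2.29 ± 0.691) and E2F2 (1.33 ± 0.197) were far below the others. Repressor and pocket protein transcripts thus stood both at the top and at the bottom of the order, and among the activators E2F1 and E2F3 were measurable whereas E2F2 was close to the floor. In NSD2-KD cells E2F4 was at 63.0 ± 21.5 per kb (n = 3), while MYBL2 was at 33.1 ± 9.95, RB1 at 26.3 ± 4.89, E2F1 at 10.5 ± 3.84 and RBL1 at 4.33 ± 0.507.

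Between NSD2-KD and Ctr-KD cells, members of each role parted into those with lower values under every siRNA and those whose groups overlapped. In RBL1, E2F1, MYBL2 and RB1 each NSD2-KD library was below both Ctr-KD libraries, with log2 differences from -1.38 to -0.58. E2F3, E2F4, E2F7 and RBL2 overlapped between the groups. E2F2 and E2F8 were also lower with every siRNA, but at 10 reads or fewer per library. Differences were tested with limma-trend on log2(normalized count + 1), a scale that understates the changes of low genes, in the 11313 genes that averaged 10 or more normalized counts, and 8 of the 10 members entered it. None of the 8 passed an adjusted p of 0.05 (Benjamini-Hochberg over all tested genes), against 0.0884% of all tested genes (0.053% lower and 0.0354% higher). Before adjustment, 4 members had a p under 0.05, against 9.18% of all tested genes. With the other tests on the reads recovered from the table, DESeq2 called 1 member (RBL1), against 0.54% of the genes it adjusted (0.402% lower and 0.137% higher). EdgeR called no member, against 0.141% of genes (0.0972% lower and 0.0442% higher), and limma-voom called none, against 0.0884% (0.0619% lower and 0.0265% higher). In each of these 3 tests 4 of the 8 members had a p under 0.05 before adjustment. Of the 11313 genes, 9.24% did so in edgeR and 9.26% in limma-voom. In DESeq2 it was 3.04% of 17187 genes, which include genes under the filter, so this share is not comparable with the other 2. A difference with all 3 NSD2-KD libraries below both Ctr-KD libraries was seen in 4 of the 8 tested members and in 13.9% of all tested genes, and the opposite in none of the 8 and in 13.8%. The median log2 difference was -0.41 over the 8 members and -0.0089 over all tested genes.

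**Figure D2:**
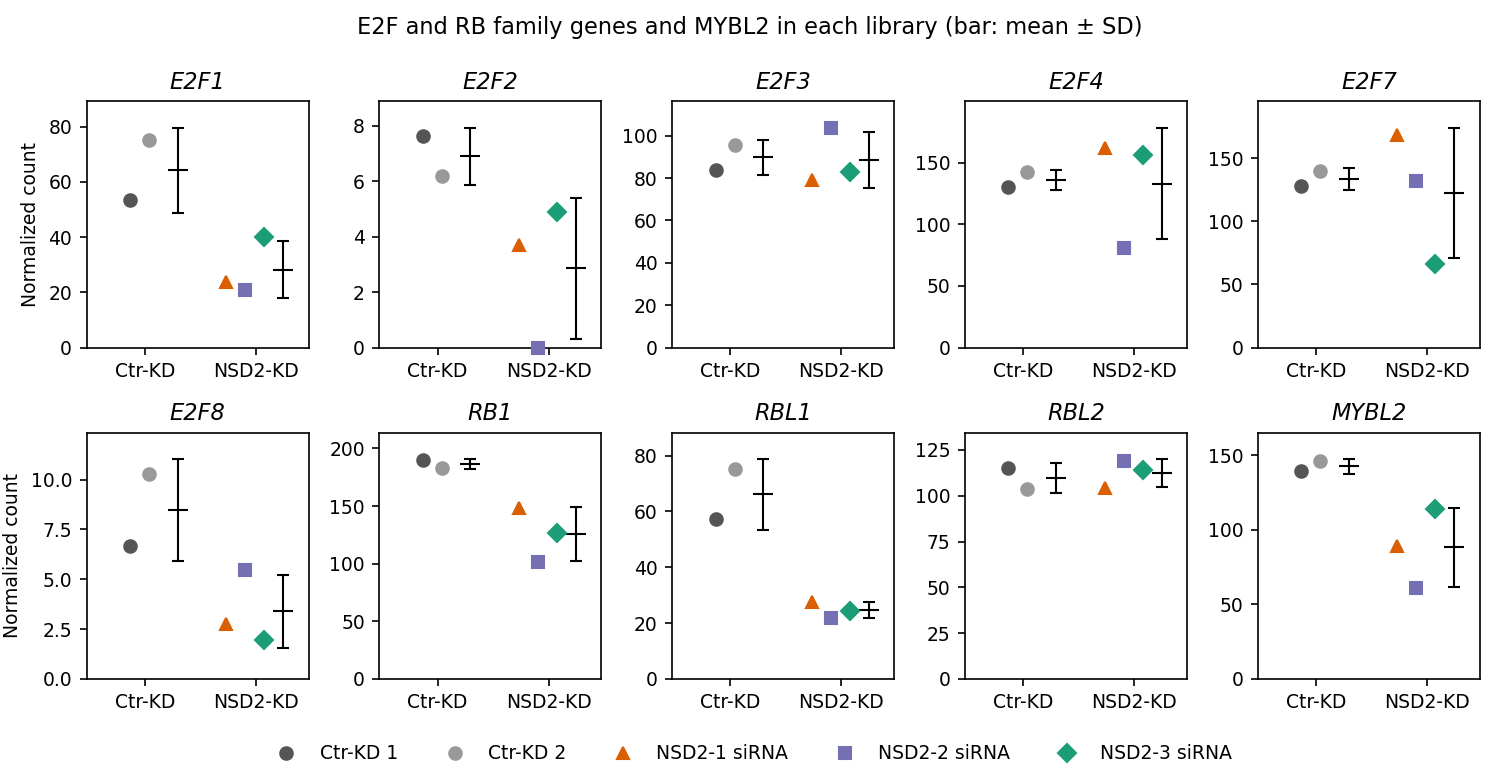
Normalized count of each of the 10 members in each library, on axes that start at 0, with the mean ± SD of each group (Ctr-KD n = 2, NSD2-KD n = 3). The NSD2-KD points of E2F1, RB1, RBL1 and MYBL2 all lie below both Ctr-KD points, whereas those of E2F3, E2F4, E2F7 and RBL2 overlap them. E2F2 and E2F8 have at most 10.3 normalized counts in any library.

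The pocket proteins did not share a common pattern. RBL1 (chr20:35624752-35724400 of GRCh37, minus strand, 22 exons), which encodes p107, a pocket protein made mostly by cycling cells, had 57.2 and 75.1 normalized counts in Ctr-KD cells and 27.6, 21.8 and 24.4 with NSD2-1, NSD2-2 and NSD2-3. Its level with the 3 siRNAs was 41.7%, 33.0% and 36.9% of that in Ctr-KD cells, the narrowest range among the members with lower values. Its log2 difference was -1.38 (standard error 0.22, 95% interval -1.90 to -0.87, adjusted p = 0.138 in limma). DESeq2 gave an adjusted p of 0.0292, edgeR 0.0898, and over 16 alternatives it ran from 0.0292 to 1.00. RBL1 had 60 and 73 reads in Ctr-KD cells and 30, 20 and 25 in NSD2-KD cells, so counting error limits its values, and 213 bases of its exons overlap a long noncoding RNA on the other strand.

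RB1 (chr13:48877880-49173572, plus strand, 27 exons), the retinoblastoma gene itself, had 190 and 183 normalized counts in Ctr-KD cells and 148, 101.6 and 127 with NSD2-1, NSD2-2 and NSD2-3. All 3 NSD2-KD values were lower, at 79.5%, 54.5% and 68.1% of the Ctr-KD mean. The exact 95% Poisson interval of NSD2-1 (126 to 173) overlapped those of the Ctr-KD libraries (164 to 218 and 157 to 212), whereas those of NSD2-2 (82.0 to 124) and NSD2-3 (106.0 to 151) did not. The log2 difference was -0.58 (standard error 0.17, 95% interval -0.98 to -0.18, adjusted p = 0.345 in limma). RBL2 (chr16:53467889-53525560, plus strand, 22 exons), which encodes p130, the pocket protein typical of resting cells, had 115 and 103.9 normalized counts in Ctr-KD cells and 104.0, 119 and 114 in NSD2-KD cells. The groups overlapped, with NSD2-2 above both Ctr-KD libraries. The log2 difference was 0.036 with a 95% interval from -0.30 to 0.37 (adjusted p = 0.962 in limma), and its direction turned when Ctr-KD replicate 2 or NSD2-KD replicate 2 was left out (-0.038 and -0.0061). Exons of AKTIP on the other strand share 609 bases with RBL2, and the strand setting of the counting is not given in the sources used here, so reads of AKTIP may be among those of RBL2.

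Each pocket protein was also taken as a share of the 3 together. Per kb of transcript, RBL1 made up 13.7% and 18.1% of the summed pocket protein level in Ctr-KD cells and 8.47%, 7.73% and 7.88% in NSD2-KD cells. RBL2 made up 32.3% and 29.3% in Ctr-KD cells and 37.4%, 49.4% and 43.2% in NSD2-KD cells. The share of RB1 was 54.1% and 52.6% in Ctr-KD cells and 54.2%, 42.9% and 48.9% in NSD2-KD cells. The summed level itself was 73.6 and 73.0 per kb in Ctr-KD cells and 57.3, 49.7 and 54.4 in NSD2-KD cells. RBL1 was thus a smaller part of a lower total with each siRNA, while the share of RB1 overlapped between the groups. As a test of unequal change, the log2 ratio of RBL1 to RBL2 (counts + 1) was -0.999 and -0.463 in Ctr-KD cells and -1.88, -2.39 and -2.18 in NSD2-KD cells. Its difference was -1.42 (exact permutation test, two-sided, p = 0.1, and 0.1 after adjustment over 3 ratios). The log2 ratio of RBL1 to RB1 differed by -0.80 (exact permutation p = 0.1, adjusted 0.1). With 2 against 3 libraries 0.1 is the smallest p that this test can give, so neither ratio could pass 0.05.

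Among the activator E2Fs, which drive the entry into S phase, E2F1 and E2F3 parted. E2F1 (chr20:32263283-32274191, minus strand, 7 exons) had 53.3 and 75.1 normalized counts in Ctr-KD cells and 23.9, 20.8 and 40.0 with NSD2-1, NSD2-2 and NSD2-3. All 3 NSD2-KD values were below both Ctr-KD values, and the NSD2-3 library lay nearest to them. The log2 difference was -1.19 (standard error 0.31, 95% interval -1.90 to -0.48, adjusted p = 0.269 in limma). E2F3 (chr6:20402110-20493945, plus strand, 7 exons) had 83.8 and 95.7 normalized counts in Ctr-KD cells and 79.1, 103.8 and 83.0 in NSD2-KD cells. Its values overlapped, with the highest and the lowest both in NSD2-KD cells. The log2 difference was -0.025 with a 95% interval from -0.43 to 0.38 (adjusted p = 0.978 in limma), which leaves room for a modest change in either direction.

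E2F2 (chr1:23832930-23857725, minus strand, 7 exons) had 8 and 6 reads in Ctr-KD cells and 4, 0 and 5 with NSD2-1, NSD2-2 and NSD2-3. The 0 with NSD2-2 lies under the floor of 3 reads (3.28 normalized counts there) and its exact 95% Poisson interval reaches 4.03, and the interval of the value with NSD2-1 (1.00 to 9.42) spans both Ctr-KD values (7.62 and 6.17). A difference in E2F2 was not detectable at this depth. With no filter on low values its adjusted p in limma was 0.715.

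Of the repressor E2Fs, E2F4 and E2F7 differed more between siRNAs than between the groups. E2F4 (chr16:67226058-67232821, plus strand, 10 exons), a repressor because it reaches promoters with a pocket protein, had 131 and 142 normalized counts in Ctr-KD cells and 162, 80.8 and 156 with NSD2-1, NSD2-2 and NSD2-3. It was above both Ctr-KD libraries with 2 siRNAs and below both with NSD2-2, where the exact 95% Poisson interval of 63.5 to 101.5, which covers counting error only, did not reach those of NSD2-1 (139 to 188) or NSD2-3 (133 to 182). The log2 difference over the 3 siRNAs was -0.10 (95% interval -0.75 to 0.55, adjusted p = 0.947 in limma), and without NSD2-KD replicate 2 it was 0.22.

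E2F7 (chr12:77415028-77459349, minus strand, 13 exons), an atypical E2F that binds DNA without a DP partner, had 128 and 140 normalized counts in Ctr-KD cells and 168, 132 and 66.4 with NSD2-1, NSD2-2 and NSD2-3. The library with the low value was here NSD2-3 and not NSD2-2. Its Poisson interval of 51.5 to 84.2 lay below that of NSD2-1 (145 to 195) and of NSD2-2 (109.7 to 158). The log2 difference over the 3 siRNAs was -0.23 (95% interval -1.004 to 0.55, adjusted p = 0.888 in limma), and without NSD2-KD replicate 3 it was 0.16.

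E2F8 (chr11:19245610-19263167, minus strand, 13 exons), the partner of E2F7 in late S phase repression, had 7 and 10 reads in Ctr-KD cells and 3, 5 and 2 in NSD2-KD cells. With no filter on low values its adjusted p in limma was 0.604, and these counts are too few to compare siRNAs. Of the repressors, then, only E2F8 had every NSD2-KD library below both Ctr-KD libraries, at counts near the floor, and none of the 3 passed a test. As a test between an activator and a repressor, the log2 ratio of E2F1 to E2F4 was -1.27 and -0.91 in Ctr-KD cells and -2.71, -1.91 and -1.94 in NSD2-KD cells. The difference was -1.09 (exact permutation test, two-sided, p = 0.1, the smallest possible, and 0.1 adjusted over 3 ratios).

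MYBL2 (chr20:42295659-42345135, plus strand, 14 exons) encodes B-MYB, which joins the MuvB core in S phase and prepares the transcription of mitotic genes. It had 139 and 146 normalized counts in Ctr-KD cells and 89.3, 61.2 and 114 with NSD2-1, NSD2-2 and NSD2-3. All 3 NSD2-KD values were lower, but unevenly, at 62.6%, 42.9% and 80.1% of the Ctr-KD mean. The Poisson intervals of NSD2-2 (46.2 to 79.4) and NSD2-3 (94.5 to 137) did not overlap. The log2 difference was -0.73 (standard error 0.24, 95% interval -1.29 to -0.17, adjusted p = 0.39997 in limma).

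**Figure D3:**
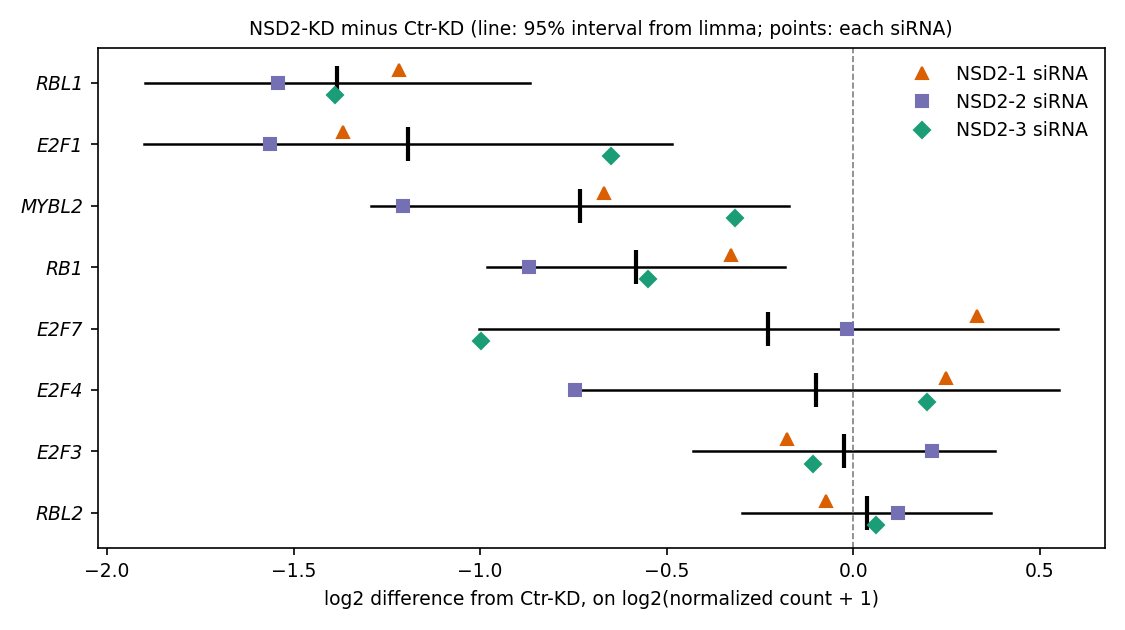
Log2 difference between NSD2-KD and Ctr-KD cells for the 8 tested members, on log2(normalized count + 1): the tick is the limma estimate, the line its 95% interval and the points the difference of each siRNA from the Ctr-KD mean. The intervals of RBL1, E2F1, MYBL2 and RB1 lie below 0 before adjustment over all genes, the points of RBL1 lie close together (-1.22, -1.54 and -1.39), and the odd point is NSD2-2 in E2F4 (-0.74) and NSD2-3 in E2F7 (-0.999).

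The siRNAs thus ordered the members differently. NSD2-2 gave the lowest of the 3 NSD2-KD values in 5 of the 8 tested members, among them E2F1, RB1, RBL1 and MYBL2. In NSD2-1 and NSD2-2 cells 5 of the 8 were below both Ctr-KD libraries, and in NSD2-3 cells 6 of the 8 were. In each library between 38.0% and 38.8% of all tested genes lay below both Ctr-KD libraries. The log2 differences of MYBL2 from the Ctr-KD mean (-0.67, -1.21 and -0.32 for NSD2-1, NSD2-2 and NSD2-3) spread more widely than those of RBL1.

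The other genes of the pathway were taken from 6 lists. The list of DP partners, other E2Fs and MuvB subunits had 10 of 11 genes tested, and none was called in either direction by limma or DESeq2. Of these 10, 5 had all NSD2-KD libraries below both Ctr-KD libraries, against 13.9% of all tested genes. The median log2 difference was -0.35, against -0.0089 over all tested genes. The smallest p-values were those of MYBL1 (A-MYB, log2 difference -0.84, adjusted p = 0.267), FOXM1 (the forkhead activator of mitotic genes, -0.64, 0.404), LIN9 (a MuvB subunit, -0.98, 0.546) and E2F6 (a repressor without pocket protein binding, -0.49, 0.566), all in limma. FOXM1 had 284 and 334 normalized counts in Ctr-KD cells and 221, 143 and 241 in NSD2-KD cells, with the lowest value under NSD2-2, as in MYBL2. LIN9 had only 18 and 17 reads in Ctr-KD cells and 5, 8 and 14 in NSD2-KD cells, so counting error limits its values.

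Upstream of the pocket proteins, none of the 8 RB kinases and cyclins was called in either direction. The median log2 difference was -0.20, and CCNE2, a cyclin E gene that is itself a classical E2F target, had the smallest p (log2 difference -1.52, adjusted p = 0.267 in limma). CDK6 (-1.11, 0.557), CDK2 (-0.36, 0.606) and CCNE1 (-0.20, 0.876) followed. CCNE2 had only 21 and 17 reads in Ctr-KD cells and 10, 4 and 5 in NSD2-KD cells. It fell under the filter when either Ctr-KD library was left out. With NSD2-2 the level of CDK6 was 19.5% of its Ctr-KD mean, against 62.3% for NSD2-1 and 80.8% for NSD2-3, and without NSD2-KD replicate 2 its log2 difference was -0.49 and that of CDK2 -0.20. Without Ctr-KD replicate 1 that of CCNE1 was -0.080, and without Ctr-KD replicate 2 it was -0.32. Of the 7 CDK inhibitors none was called by limma, with a median of -0.030, while DESeq2 called 1 lower and 1 higher. Of all genes that DESeq2 adjusted, 0.402% were called lower and 0.137% higher. CDKN2C, which encodes p18 and is also transcribed with the cell cycle, had 98.0 ± 16.4 normalized counts in Ctr-KD cells (SD, n = 2) and 37.3 ± 12.5 in NSD2-KD cells (SD, n = 3), a log2 difference of -1.42 (adjusted p = 0.214 in limma and 0.0237 in DESeq2). CDKN1A (p21) had a log2 difference of 0.76 (adjusted p = 0.237 in limma and 0.0264 in DESeq2), CDKN2B (p15) of 0.48 (0.623 in limma) and CDKN2D (p19) of -0.32 (0.808 in limma).

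Of the 10 genes for RB corepressors, none was called, 5 had a negative and 5 a positive log2 difference, and the median was -0.014. HDAC3 had the smallest p (0.56, adjusted p = 0.267 in limma), followed by SUV39H1, an H3K9 methyltransferase (-0.95, 0.382), SIN3B (0.30, 0.544) and HDAC2 (-0.20, 0.683). The lists thus differed in their medians, and those upstream of E2F and at its side lay closer to that of all tested genes than the target genes did. Even so, in 4 of the 8 kinases and cyclins every NSD2-KD library was below both Ctr-KD libraries, and in 0 above both. Among the 10 corepressors these counts were 3 lower and 3 higher, and among the 7 CDK inhibitors 1 lower and 2 higher. Of all tested genes 13.9% were lower and 13.8% higher in this way.

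Downstream, the members' target genes were nearly all lower. These lists were chosen with earlier results of these data known, and the study had reported DNA replication and cell cycle gene sets as lower. The counts below are therefore a description and no independent test. All 22 G1/S E2F target genes were tested and had negative log2 differences, with a median of -1.08 against -0.0089 over all tested genes, and in 20 of the 22 every NSD2-KD library was below both Ctr-KD libraries (13.9% of all tested genes). Limma called 2 of them lower, RRM2 (the ribonucleotide reductase subunit, -1.67, adjusted p = 0.00228) and UHRF1 (a reader of hemimethylated DNA, -1.46, 0.0193), and none higher, against 0.053% of all tested genes called lower. Both calls were lost without either Ctr-KD replicate: the adjusted p of RRM2 was then 0.209 (without replicate 1) or 0.296 (without replicate 2) and that of UHRF1 0.848 or 0.754. The log2 differences hardly moved, at -1.71 and -1.63 for RRM2 and -1.45 and -1.48 for UHRF1. The calls were also lost in limma without the trend (0.0615 and 0.112). DESeq2 called 8 lower, against 0.402% of genes. The 22 target genes of MYBL2-MuvB and FOXM1 in G2 and mitosis were also all tested and negative, with a median of -0.99. In 21 of these every NSD2-KD library was below both Ctr-KD libraries, limma called none and DESeq2 called 4 lower. The smallest p-values were those of BUB1 (a checkpoint kinase, -1.38, adjusted p = 0.164), CDC20 (an activator of the anaphase-promoting complex, -1.04, 0.197), UBE2C (its E2 enzyme, -0.94, 0.198) and TOP2A (topoisomerase II alpha, -1.13, 0.201), all in limma. By siRNA, the medians of the G1/S targets were -0.76, -1.45 and -0.84 for NSD2-1, NSD2-2 and NSD2-3, and those of the G2/M targets were -0.83, -1.45 and -0.58. NSD2-2 gave the lowest of the 3 NSD2-KD values in 19 of 22 G1/S and 19 of 22 G2/M targets, as in E2F1, MYBL2, RB1 and RBL1, but not in RRM2, UHRF1 or UBE2C (lowest with NSD2-1) or in TOP2A (lowest with NSD2-3).

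**Figure D4:**
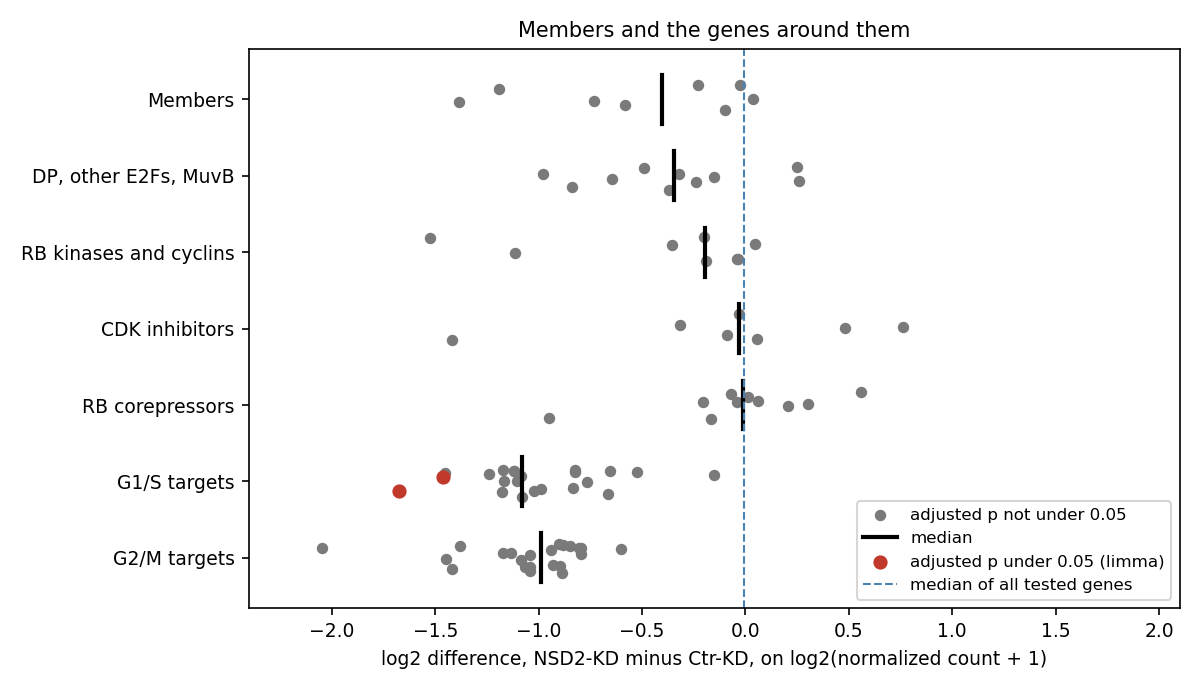
Log2 difference between NSD2-KD and Ctr-KD cells on log2(normalized count + 1) for the 8 tested members and for the tested genes of 6 lists around them: each point is a gene, spread vertically only for visibility, the black bar is the median and the dashed line the median of all tested genes. The G1/S and G2/M target genes lie furthest to the left, with medians of -1.08 and -0.99, and the 2 genes in red, RRM2 and UHRF1, passed limma's adjusted p of 0.05.

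For 3 members the genes with the most similar profile over the 5 libraries were sought among the other tested genes, by the Euclidean distance of log2 values centred on the Ctr-KD mean. Nearest to MYBL2 were NUSAP1 (distance 0.13), TXNDC16 (0.14) and ALDOC (0.14), where the median over all tested genes was 1.48. NUSAP1 had 118 and 124 normalized counts in Ctr-KD cells and 73.6, 49.2 and 90.8 in NSD2-KD cells, while TXNDC16 and ALDOC had fewer than 24 in every library. Nearest to E2F1 were RECQL4 (0.30), TMPO-AS1 (0.34) and SPIN4 (0.35), against a median of 2.23. Nearest to RBL1 were RFC3 (0.27), CHAF1B (0.39) and VRK1 (0.39), against a median of 2.44. RFC3 had 54.3 and 59.7 normalized counts in Ctr-KD cells and 22.1, 20.8 and 19.5 in NSD2-KD cells, about as even across the siRNAs as RBL1. None of these 9 genes passed limma's adjusted p of 0.05, and with 5 libraries such likeness is a description only.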

How the data were processed

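Poly(A) mRNA-seq data of 5 IMR-90 libraries (2 Ctr-KD, 3 NSD2-KD) were analysed. According to the methods and the submitters' processing notes, the authors aligned trimmed reads to hg19 by HISAT2, retained those with a unique position using SAMtools, and obtained counts by gene from featureCounts. The annotation used for counting is not given in the sources used here. The deposited signal is the count of each gene that the authors divided by a DESeq2 size factor per library, so that a shift common to the whole transcriptome cannot be seen. A second deposited table, which holds the authors' own fold changes and p-values, was not used. In every library 100% of values were whole multiples of the smallest one (tolerance 0.001), so that reads were recovered.

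The main test was limma-trend (limma 3.58.1, R 4.3.3) on log2(normalized count + 1), without covariates, for genes with a mean of at least 10, and Benjamini-Hochberg adjustment over all of them (threshold 0.05). Alternatives were another pseudocount or filter, no trend, robust estimation, quantile normalization, edgeR 4.0.16 (quasi-likelihood, TMM), DESeq2 1.42.0 and limma-voom (these 3 on recovered reads), a block for the replicate number, a threshold of 0.1, and each library left out. The fits were also run on simulated data with known changes. The dispersion there was fixed and not estimated from these libraries, so that run checked the code only. Positions, exons, overlaps and the principal (MANE Select or Ensembl canonical) transcript lengths are from GENCODE on GRCh37, the assembly of hg19. The members and lists were chosen with earlier results of these data known. Genes named outside the members are those called in a list or otherwise the 4 with the smallest p, the 3 nearest profiles of MYBL2, E2F1 and RBL1, and cell type markers.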

Additional observations from a re-analysis of the deposited data

How the results depend on the processing

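Leaving out each library in turn, the number of genes called by limma ran from 0 to 22 lower (6 with all libraries) and from 0 to 8 higher (4), that of genes called in the 6 lists from 0 to 10 lower (2) and from 0 to 1 higher (0), and no member was called. Both zeros came from leaving out either Ctr-KD library, which leaves a lone library assumed to vary like the NSD2-KD group, and without NSD2-KD replicate 2 no gene was called higher. Across all genes, limma without the trend called 1 lower and 0 higher, quantile normalization called 8 higher, edgeR called 11 lower, DESeq2 called 41 lower and 14 higher, and a threshold of 0.1 gave 11 lower. Counting the Ctr-KD libraries as 1 sample, which was chosen after seeing the data, gave 0 lower and 0 higher. In the lists the calls lower were 0 without the trend, 4 with edgeR, 13 with DESeq2, 4 at a threshold of 0.1 and 0 with the Ctr-KD libraries as 1 sample, and DESeq2 called 1 higher. The cause was not tested.

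Members called were 1 with DESeq2 (RBL1) and 0 in the other settings but the block. With the replicate number as a block, 84 genes were called lower and 18 higher, 25 list genes lower and 1 higher, and 1 member, E2F1 (log2 difference -1.47, adjusted p = 0.0435 in limma). The labels do not say that equal numbers mark a shared culture. The deviations of same-numbered libraries correlated at -0.015 and -0.027. The Ctr-KD libraries differed by little more than counting gives, so this correlation could not show whether a culture was shared. NSD2-KD replicate 3 has no control of its number and does not enter that difference.

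The log2 differences of RBL1, E2F1, MYBL2 and RB1 were negative in every alternative that tested them, although RBL1 and E2F1 were not tested at a minimum of 50. Of the members near 0, E2F3 turned to 0.0069 with quantile normalization, 0.017 with the block and between 0.017 and 0.069 without Ctr-KD replicate 2, NSD2-KD replicate 1 (0.051) or NSD2-KD replicate 3. Over all libraries left out in turn, E2F3 ran from -0.14 to 0.069, E2F4 from -0.27 to 0.22, E2F7 from -0.51 to 0.16 and RBL2 from -0.038 to 0.11. E2F4 turned to 0.22 without NSD2-KD replicate 2, E2F7 to 0.16 with the block or without NSD2-KD replicate 3, and RBL2 to -0.038 without Ctr-KD replicate 2 and -0.0061 without NSD2-KD replicate 2. The 3 ratios between members kept their direction in all 8 alternatives, of which 5 leave out a library. Depth limits E2F2 and E2F8 most.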
